A study of Mus musculus with 247 samples.

Results

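The genes described here are 35 genes of glycolysis and of the response to low oxygen, taken as a fixed list of names. The list was drawn up with earlier results of these data known. All 35 stood in the RNA-seq table of 14378 genes, and all passed the filter on low read numbers. Sites that the deposited tables assign to a member as the nearest gene numbered 223 of 73206 in ATAC-seq, 151 of 52093 for PU.1, 189 of 58888 for JunB, 97 of 26718 for MED1 and 90 of 23360 for RNA polymerase II. The cells were RAW264.7, a mouse macrophage line from the BALB/c strain, either carrying a CRISPR knockout of Gps2 (KO) or wild type (WT). GPS2 is a subunit of a nuclear corepressor complex. For RNA-seq of polyadenylated RNA there were 4 groups of 4 libraries each, namely untreated KO, untreated WT, KO after 6 hours with lipopolysaccharide (LPS, a bacterial cell wall component that activates macrophages) at 10 ng/ml, and WT after the same LPS treatment. For ATAC-seq there were 3 wells each of untreated KO cells and untreated control cells labelled CRISPR_KO_Ctrl. For ChIP-seq there were 2 libraries per group, KO and WT, after 2 hours with LPS for all 4 proteins and also without LPS for PU.1 and JunB. The labels do not say whether the KO cells are 1 clone or several, so a difference between clones and the loss of GPS2 cannot be told apart.

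Glycolysis turns glucose into pyruvate in the cytosol, and lactate dehydrogenase with the monocarboxylate transporters turns part of that pyruvate into lactate and exports it. HIF-1, a transcription factor made of an oxygen-regulated subunit (HIF-1α, gene Hif1a) and a constant one, binds a short DNA core, ACGTG or GCGTG, and raises transcription of most glycolytic enzymes. Prolyl hydroxylases of the EGLN family mark HIF-1α for breakdown while oxygen is present. Macrophages activated by LPS are known for a shift to glycolysis and for raised HIF-1α.

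Promoter sequences show where that core lies. RefSeq held a promoter window, 250 bases before to 50 bases after the start, for 33 of the 35 members (GRCm38.p6), with no entry used here for Bnip3l and Ndrg1. The core was ACGTG or GCGTG on either strand, with overlapping matches counted apart. A gene with several start sites counted as holding it if any of its windows did. The core was held by 31 of the 33 members (93.9%) and by 12628 of 27025 genes in all (46.7%). Of the genes tested in the RNA table it was held by 6367 of 9328 (68.3%). The ACGTG form was held by 25 members (75.8%), against 21.8% of all genes and 29.9% of tested genes. These shares were not matched for base composition or for the number of start sites per gene, and Gpi1 and Tpi1 held neither form. The 250 bases before the start are shown for Ankrd37, Bnip3 and Egln3, which had lower RNA in KO cells in both states, and for the glucose transporter gene Slc2a1. They were picked after their values were seen, all are written along the strand of the gene, and capitals mark the core on either strand. Ankrd37 held 2 ACGTG and 2 GCGTG matches, Bnip3 2 and 3, Egln3 1 and 0, and Slc2a1 1 and 1.
Ankrd37 (chr8:45999851-46000100, minus strand, GRCm38.p6): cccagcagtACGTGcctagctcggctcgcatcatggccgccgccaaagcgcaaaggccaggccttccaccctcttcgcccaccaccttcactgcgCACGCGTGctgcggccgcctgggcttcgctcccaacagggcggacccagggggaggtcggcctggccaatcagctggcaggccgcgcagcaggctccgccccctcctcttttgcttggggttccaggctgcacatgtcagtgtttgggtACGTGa
Bnip3 (chr7:138909507-138909756, minus strand, GRCm38.p6): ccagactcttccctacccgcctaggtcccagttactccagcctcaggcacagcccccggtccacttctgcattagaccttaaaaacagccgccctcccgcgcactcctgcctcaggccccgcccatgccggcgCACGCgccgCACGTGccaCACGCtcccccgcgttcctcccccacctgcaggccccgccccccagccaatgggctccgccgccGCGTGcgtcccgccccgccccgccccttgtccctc
Egln3 (chr12:54203875-54204124, minus strand, GRCm38.p6): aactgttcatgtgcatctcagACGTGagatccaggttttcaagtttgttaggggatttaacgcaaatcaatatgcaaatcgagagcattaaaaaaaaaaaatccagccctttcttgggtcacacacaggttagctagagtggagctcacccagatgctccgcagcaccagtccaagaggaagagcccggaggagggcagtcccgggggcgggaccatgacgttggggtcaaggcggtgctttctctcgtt
Slc2a1 (chr4:119108495-119108744, plus strand, GRCm38.p6): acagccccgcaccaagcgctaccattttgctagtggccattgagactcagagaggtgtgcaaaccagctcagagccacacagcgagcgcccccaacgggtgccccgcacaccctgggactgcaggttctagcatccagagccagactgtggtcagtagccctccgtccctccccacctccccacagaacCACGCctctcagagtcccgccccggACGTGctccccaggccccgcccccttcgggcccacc
A match is a stretch of letters and was not tested as a binding site.

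RNA levels below are reads per 10000000 mapped reads, scaled by trimmed mean of M values (TMM) factors, with values listed in the order of libraries 1 to 4. Mapped reads ran from 12094940 to 22968591 per RNA library. Each log2 difference is on the log2(value + 1) scale, is given ± its standard error and comes from a limma fit over all 16 libraries with Benjamini-Hochberg adjustment over 11774 genes. The labels do not say that libraries came from separate cultures, so p-values measure the spread between these libraries, which may be technical, and in bulk RNA fewer cells and less RNA per cell cannot be told apart. Between libraries of a group the chi-square per gene, where sampling noise alone gives 1, was 1.24 to 1.81 in KO with LPS. It was 1.4 to 3.31 in untreated KO and 2.68 to 7.23 in untreated WT. Gps2 itself stood at 129.6 to 135 in untreated KO libraries, against 415 to 458 in untreated WT libraries. With LPS it stood at 76.9 to 98.5 in KO, against 420.4 to 496 in WT, so its RNA was lower but not absent in KO. All 10 macrophage markers were detected, 6 of them higher and 1 lower in untreated KO cells, and their summed level was 128760.0 to 135504 in untreated KO libraries, against 89863 to 98419.8 in untreated WT libraries. With LPS, 6 of the 10 were higher and 3 lower, with sums of 114609 to 120532 in KO and 89036 to 110788 in WT. Lymphocyte markers (3 of 11 in the table) summed to at most 2.59 in any library, and of 9 fibroblast and epithelial markers only Col1a1 was listed, at no more than 1.1. Granulocyte and dendritic cell markers (3 of 9 in the table) summed to 12.2 to 16.6 in untreated KO, 12.3 to 15.8 in untreated WT, 98.5 to 114 in KO with LPS and 187 to 292 in WT with LPS. Among these 3, S100a8 was higher in KO in both states (group means 4.52 in KO and 0.260 in WT untreated, log2 2.11, adjusted p = 2.47e-04, and 17.5 in KO and 9.39 in WT with LPS, log2 1.02, adjusted p = 0.0307). Xcr1 was lower in KO with LPS (89.2 in KO and 206 in WT, log2 -1.18, adjusted p = 4.44e-05), and Zbtb46 averaged 7.38 in KO and 11.2 in WT untreated. What part these marker levels have in the results below was not tested.

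WT LPS library 4 stood apart. Its chi-square per gene against the other WT LPS libraries was 94.1 to 131.0, while those 3 differed from each other by 5.0 to 9.11. All groups share an estimate of the spread, and without this library 59.1% of all genes passed in KO against WT without LPS, where 35.4% passed with it. For most members the difference with LPS is also given without it.

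In untreated cells, 18 of the 35 members had lower RNA in KO than in WT and 5 had higher RNA. Over all genes tested, 17.4% were lower and 18% higher. The median log2 difference was -0.22 over the members and 0.01 over all genes. With LPS, 21 members were lower and 6 higher in KO, where 22.1% of all genes were lower and 22.1% higher, and the median was -0.34 over the members against 0.00 over all genes. The KO and WT libraries did not overlap for 30 of the 35 members without LPS (55.2% of all genes) and for 27 with LPS (39.6% of all genes). Without WT LPS library 4 the members numbered 25 lower and 5 higher in untreated cells (29.8% and 29.3% of all genes) and 25 lower and 7 higher with LPS (28.6% and 29.4%). With library totals in place of TMM factors, 35.8% of all called genes were higher in untreated KO cells, against 50.9% with TMM, and the members numbered 21 lower and 4 higher. Limma library weights, with all libraries kept, added 8 calls among the members in untreated cells and 5 with LPS. Fitting the 8 libraries of a state alone added 9 calls in untreated cells and ended 8 with LPS, where 3 members were then higher and 16 lower. Shares of all genes under library weights or in these restricted fits are not given. A change in calls particular to the members is therefore not shown.

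**Figure D1:**
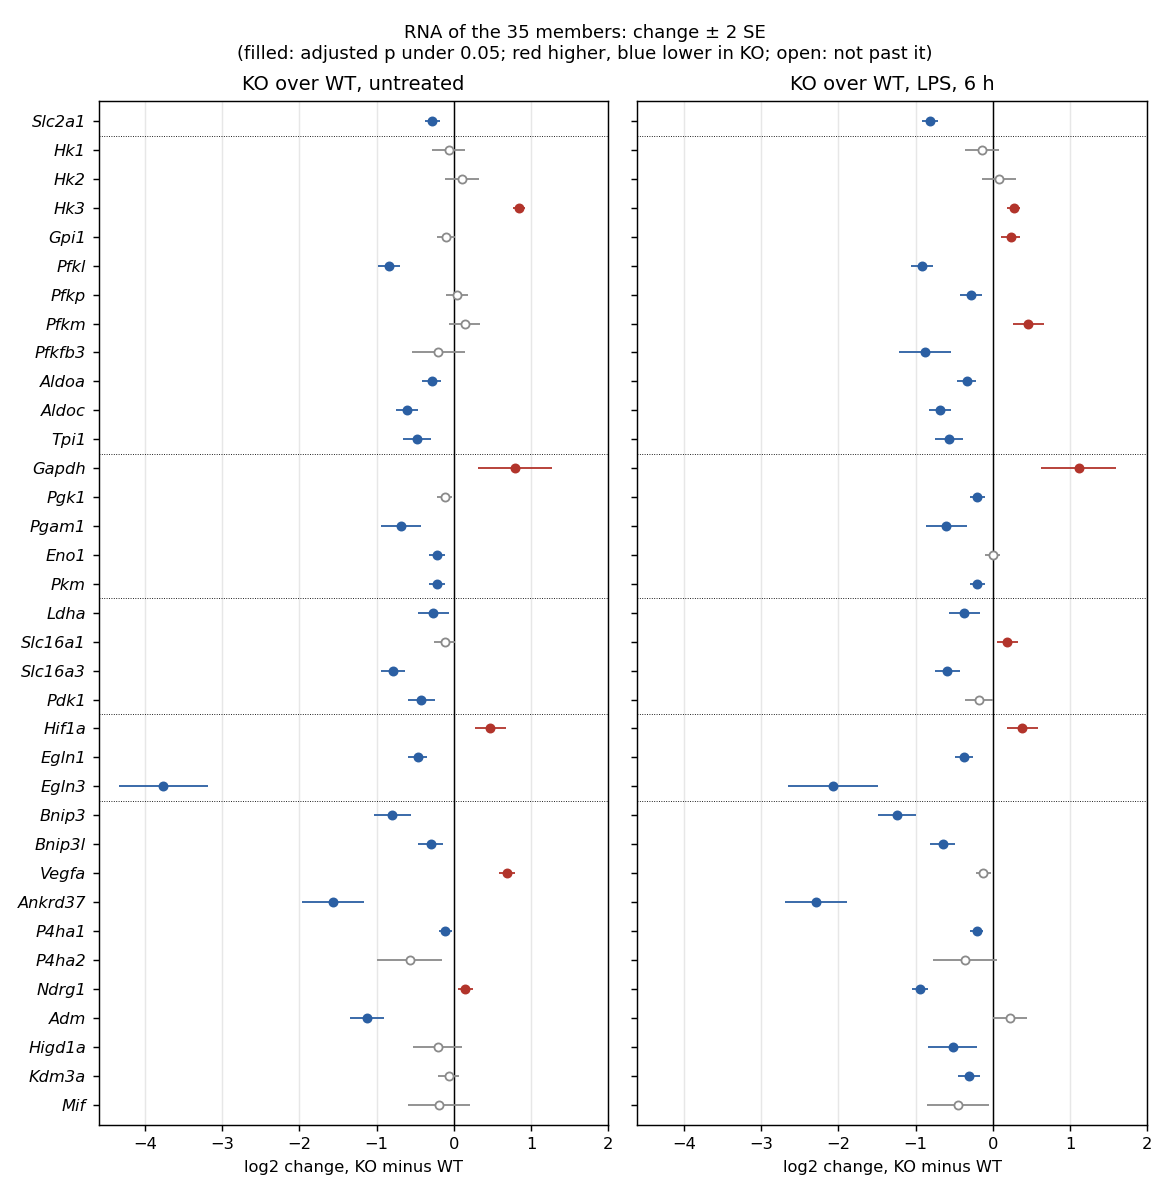
Log2 difference in RNA, KO minus WT, for each of the 35 members (rows, in role groups) in untreated cells and with LPS, with bars of 2 SE (limma, n = 4 libraries per group). Most points lie left of 0 in both states, and Ankrd37 and Egln3 lie farthest left. The Egln3 value with LPS depends on the pseudocount because KO LPS libraries had 0 reads.

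Per kilobase of transcript, the most abundant members in untreated KO cells were Pkm (17270.0), Ldha (14176), Aldoa (13319), Mif (8206) and Eno1 (5710.1), and the libraries of each of these genes did not overlap with those of the next. In untreated WT cells the order was Pkm (20114), Ldha (17086), Aldoa (16265) and Mif (9412), with overlapping libraries of Ldha and Aldoa. With LPS, Pkm (16473) and Ldha (16141) overlapped in KO cells, and in WT cells Ldha (21234), Pkm (18998), Aldoa (16356) and Mif (13183) formed a run of overlapping neighbours. The lowest members in untreated cells were Gapdh, P4ha2 and Egln3, at 29.6, 4.66 and 0.358 per kilobase in KO and 17.8, 7.08 and 9.21 in WT.

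Glucose uptake was represented by Slc2a1, which encodes the transporter GLUT1. Slc2a1 had 2319, 2211, 2245 and 2246 in untreated KO libraries, against 2727, 2582, 2813 and 2801 in untreated WT libraries. Its LPS libraries held 4662, 4683, 4774 and 4822 in KO, against 8115, 8845, 8628 and 7753 in WT. Both pairs of groups were apart, with KO lower in each state, by log2 -0.28 ± 0.05, adjusted p = 4.47e-04 in untreated cells and log2 -0.81 ± 0.05, adjusted p = 3.49e-09, and -0.84 without WT LPS library 4 with LPS.

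Upper glycolysis runs from the capture of glucose by hexokinases to the triose phosphates. Of its 11 genes, 4 were lower and 1 higher in untreated KO cells, and 6 were lower and 3 higher with LPS. The hexokinase genes Hk1 and Hk2 did not pass in either state (log2 -0.07 and 0.10 untreated, -0.14 and 0.08 with LPS). Without WT LPS library 4, Hk1 was lower in KO with LPS (-0.30, adjusted p = 3.14e-06) and Hk2 did not pass (-0.06, adjusted p = 0.263). Hk3, a hexokinase isoform found in myeloid cells, had 894, 927, 908 and 914 in untreated KO, against 517, 505, 505 and 500.1 in untreated WT. Hk3 values with LPS were 886, 907, 936 and 918 in KO, against 759.6, 724, 767 and 773 in WT. It was thus higher in every KO library than in any WT library of the same state (log2 0.84 ± 0.04, adjusted p = 3.48e-10 untreated, log2 0.27 ± 0.04, adjusted p = 1.25e-04, and 0.29 without WT LPS library 4 with LPS).

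Gpi1 converts glucose 6-phosphate to fructose 6-phosphate. Gpi1 had 9367, 9406, 9432 and 9576 in untreated KO, against 10063, 9949, 10424 and 10044 in untreated WT. Gpi1 values with LPS were 8909.6, 8703, 8996 and 8728 in KO, against 7996, 8163, 7846 and 6369.7 in WT. KO libraries lay below all WT libraries without LPS and above all of them with LPS. The untreated difference did not pass (log2 -0.10 ± 0.06, adjusted p = 0.257), but it did without WT LPS library 4 (-0.11, adjusted p = 0.00172), with library weights (adjusted p = 0.00122) and with the untreated libraries fitted alone (adjusted p = 0.00334), while the difference with LPS passed (log2 0.23 ± 0.06, adjusted p = 0.0101, and 0.15 without WT LPS library 4), except when the 8 LPS libraries were fitted alone (adjusted p = 0.0986).

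Phosphofructokinase, the committed step, has a liver (Pfkl), a platelet (Pfkp) and a muscle (Pfkm) isoform, and the 3 genes did not move alike. Pfkl had 1698, 1769.7, 1699 and 1723 in untreated KO, against 3177, 3116, 3060.4 and 2949 in untreated WT. Pfkl values with LPS were 1859, 1706, 1735 and 1793 in KO, against 3316, 2934, 3249 and 3971 in WT. Every KO library was well below every WT library in both states (log2 -0.84 ± 0.07, adjusted p = 1.72e-07 untreated, log2 -0.92 ± 0.07, adjusted p = 6.57e-08, and -0.83 without WT LPS library 4 with LPS). Pfkp, the isoform with the highest level per kilobase, had 3626, 3664, 3645 and 3644 in untreated KO, against 3455, 3517, 3665 and 3522 in untreated WT. Pfkp values with LPS were 3137, 3061, 3196 and 3171 in KO, against 4174, 3905, 4044 and 3209 in WT. The untreated groups overlapped (log2 0.04 ± 0.07, adjusted p = 0.667), and with LPS the KO libraries were lower (log2 -0.28 ± 0.07, adjusted p = 0.00301, and -0.36 without WT LPS library 4), though not when the 8 LPS libraries were fitted alone (adjusted p = 0.0525). Pfkm had 274, 276, 263 and 257 in untreated KO, against 254, 234, 253 and 231 in untreated WT. Pfkm values with LPS were 70.4, 82.1, 69.9 and 81.3 in KO, against 57.4, 61.2, 43.6 and 58.9 in WT. It did not pass in untreated cells (log2 0.14 ± 0.10, adjusted p = 0.302) and was higher in KO with LPS, at low levels (log2 0.46 ± 0.10, adjusted p = 0.00132, and 0.50 without WT LPS library 4).

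Pfkfb3 makes fructose 2,6-bisphosphate, the activator of phosphofructokinase. Pfkfb3 had 505, 493, 533 and 545 in untreated KO, against 531, 611, 629 and 623 in untreated WT. Pfkfb3 values with LPS were 2173, 2199, 2375 and 2304 in KO, against 5154, 5087, 4557 and 2481 in WT. Untreated groups overlapped (log2 -0.20 ± 0.17, adjusted p = 0.387, and -0.21 with adjusted p = 8.47e-04 without WT LPS library 4). With LPS all KO libraries were lower (log2 -0.88 ± 0.17, adjusted p = 6.18e-04, and -1.12 without WT LPS library 4), and WT LPS library 4 was the WT library nearest to them.

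Aldolase splits the hexose, with Aldoa as the main isoform here. Aldoa had 21048, 21399.8, 20624 and 20894 in untreated KO, against 26650.1, 24831, 26603 and 24451 in untreated WT. Aldoa values with LPS were 20396, 20212, 20019.6 and 20338 in KO, against 23585, 24692, 24964 and 29868 in WT. The groups were apart in both states, with KO lower (log2 -0.29 ± 0.06, adjusted p = 0.00189 untreated, log2 -0.34 ± 0.06, adjusted p = 3.73e-04, and -0.26 without WT LPS library 4 with LPS). Aldoc, the isoform typical of brain, had 848, 873, 846 and 833 in untreated KO, against 1269, 1349.9, 1283 and 1276 in untreated WT. Aldoc values with LPS were 499, 479.8, 503 and 495 in KO, against 892, 778, 847 and 666 in WT. KO was lower in both (log2 -0.61 ± 0.07, adjusted p = 6.43e-06 untreated, log2 -0.68 ± 0.07, adjusted p = 1.76e-06, and -0.75 without WT LPS library 4 with LPS). Tpi1, triosephosphate isomerase, had 6710.0, 6628, 6566 and 6655 in untreated KO, against 10066, 9155, 9013 and 8953 in untreated WT. Tpi1 values with LPS were 6325, 6702, 6323 and 6231 in KO, against 8383, 8649, 9293 and 11899 in WT. It too was lower in all KO libraries (log2 -0.48 ± 0.09, adjusted p = 3.49e-04 untreated, log2 -0.57 ± 0.09, adjusted p = 7.06e-05, and -0.45 without WT LPS library 4 with LPS).

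Lower glycolysis, from glyceraldehyde 3-phosphate to pyruvate, held 5 genes, of which 3 were lower and 1 higher in KO in each state. The gene that was higher was Gapdh, and its RNA value is uncertain. Gapdh had 41.0, 36.4, 45.1 and 44.9 in untreated KO, against 33.5, 22.5, 31.1 and 13.4 in untreated WT. Gapdh values with LPS were 87.3, 71.3, 76.7 and 67.9 in KO, against 40.6, 37.7, 39.6 and 22.8 in WT. The groups were apart (log2 0.79 ± 0.24, adjusted p = 0.0169 untreated, log2 1.11 ± 0.24, adjusted p = 0.00139, and 0.93 without WT LPS library 4 with LPS), at levels per kilobase far below those of its neighbours in the pathway. Its RNA polymerase II site held 2102 reads per 10000000 in KO and 2138 in WT, more than any other member site within 1 kb of a start. Gapdh has many near-identical copies in the mouse genome, how the authors counted reads shared with them is not given in the sources used here, and no direction is drawn from its RNA.

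Pgk1, phosphoglycerate kinase, had 8474, 8166, 8222 and 8076 in untreated KO, against 9327, 8623, 8805 and 9066 in untreated WT. Pgk1 values with LPS were 9643, 9861, 9661 and 9412 in KO, against 10409, 10536, 11299 and 12022 in WT. KO libraries were lower in both states, but the untreated difference did not pass (log2 -0.12 ± 0.05, adjusted p = 0.0781). It passed without WT LPS library 4 (-0.13, adjusted p = 0.00164), without WT LPS library 1 (adjusted p = 0.0412), and with library totals (-0.20, adjusted p = 0.00122), library weights (adjusted p = 8.54e-04) or the untreated libraries fitted alone (adjusted p = 0.00272). With LPS it passed (log2 -0.20 ± 0.05, adjusted p = 0.00543, and -0.15 without WT LPS library 4), though not when the 8 LPS libraries were fitted alone (adjusted p = 0.0672). Pgam1, phosphoglycerate mutase, had 1042, 1129, 984 and 1061 in untreated KO, against 1686, 1671, 1709 and 1723 in untreated WT. Pgam1 values with LPS were 1016, 1018, 1091 and 1109 in KO, against 1910.2, 1771, 1788 and 1097 in WT. It was lower in KO in both states (log2 -0.69 ± 0.13, adjusted p = 5.04e-04 untreated, log2 -0.60 ± 0.13, adjusted p = 0.00127, and -0.78 without WT LPS library 4 with LPS), and with LPS WT library 4 fell inside the KO range.

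Eno1, the enolase of most tissues, had 10014, 10241, 9772 and 10217 in untreated KO, against 11824, 11317, 12146 and 11439 in untreated WT. Eno1 values with LPS were 12363, 13007, 12627 and 12619 in KO, against 12649.9, 12997, 13109 and 11795 in WT. Untreated KO libraries were all lower (log2 -0.22 ± 0.05, adjusted p = 0.00167), and with LPS the groups overlapped (log2 0.00 ± 0.05, adjusted p = 0.965, and -0.02 without WT LPS library 4). Pkm, pyruvate kinase, had 42253, 42734, 40568 and 41549 in untreated KO, against 50083, 48109.6, 48806 and 47625 in untreated WT. Pkm values with LPS were 39373, 40224, 40048 and 39747 in KO, against 43859, 43311, 45625 and 51029 in WT. Both comparisons had KO lower with no overlap (log2 -0.22 ± 0.05, adjusted p = 0.00272 untreated, log2 -0.20 ± 0.05, adjusted p = 0.00399, and -0.15 without WT LPS library 4 with LPS), the second not when the 8 LPS libraries were fitted alone (adjusted p = 0.0595).

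Pyruvate and lactate handling held 4 genes, 3 of them lower in untreated KO cells, and 2 lower and 1 higher with LPS. Ldha, the lactate dehydrogenase subunit that favours lactate formation, had 23268, 22783, 22723 and 22687 in untreated KO, against 29069, 26978, 26936 and 27255 in untreated WT. Ldha values with LPS were 26011, 26871, 25799.5 and 25462 in KO, against 29493, 30429, 32269.6 and 44812 in WT. All KO libraries were lower in both states (log2 -0.27 ± 0.10, adjusted p = 0.0401 untreated, log2 -0.37 ± 0.10, adjusted p = 0.00520, and -0.23 without WT LPS library 4 with LPS). The untreated call was lost when any of the 8 untreated libraries was left out (adjusted p 0.0636 to 0.103), with a replicate block (adjusted p = 0.0567) and with no trend (adjusted p = 0.0524), and the call with LPS when the LPS libraries were fitted alone (adjusted p = 0.0606).

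Slc16a1 encodes the monocarboxylate transporter MCT1. Slc16a1 had 2842, 2733, 2812 and 2795 in untreated KO, against 3030.1, 2967, 3007 and 3141 in untreated WT. Slc16a1 values with LPS were 3612, 3645, 3543 and 3502 in KO, against 2912, 2925, 3071 and 3736 in WT. The untreated difference did not pass (log2 -0.12 ± 0.07, adjusted p = 0.184, and -0.13 with adjusted p = 0.00150 without WT LPS library 4), and with LPS KO was higher (log2 0.19 ± 0.07, adjusted p = 0.0334, and 0.27 without WT LPS library 4), with WT library 4 above the KO range. The call with LPS was lost without KO LPS library 2 (adjusted p = 0.0507), without WT LPS library 1 (adjusted p = 0.0523) and when the LPS libraries were fitted alone (adjusted p = 0.172). Slc16a3, the lactate exporter MCT4, had 2435, 2832, 2379 and 2701 in untreated KO, against 4311, 4665, 4680.2 and 4263 in untreated WT. Slc16a3 values with LPS were 3137, 3041, 3269 and 3278 in KO, against 5673, 4474, 4857 and 4245 in WT. KO was lower and apart in both states (log2 -0.79 ± 0.08, adjusted p = 1.55e-06 untreated, log2 -0.59 ± 0.08, adjusted p = 3.42e-05, and -0.64 without WT LPS library 4 with LPS).

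Pdk1 encodes a kinase that switches off pyruvate dehydrogenase and so keeps pyruvate from the mitochondria. Pdk1 had 1091, 1073, 1069.9 and 1126 in untreated KO, against 1365, 1471, 1507 and 1505 in untreated WT. Pdk1 values with LPS were 472, 471, 524 and 487 in KO, against 581, 628, 596 and 428 in WT. It was lower in untreated KO cells (log2 -0.42 ± 0.09, adjusted p = 0.00222). With LPS, WT library 4 lay below all KO libraries, and the difference did not pass (log2 -0.18 ± 0.09, adjusted p = 0.133, and -0.29 without WT LPS library 4). It passed with that library left out (adjusted p = 6.60e-06) and with library weights (-0.29, adjusted p = 3.06e-05).

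Among the 3 genes of oxygen sensing, Hif1a was higher and both prolyl hydroxylase genes were lower in KO cells in both states. Hif1a had 1435, 1366, 1481 and 1410.1 in untreated KO, against 927, 1010.4, 1067 and 1120.4 in untreated WT. Hif1a values with LPS were 2051, 2194, 2126 and 1985 in KO, against 1701, 1850.3, 1729 and 1208 in WT. Every KO library exceeded every WT library of its state (log2 0.47 ± 0.10, adjusted p = 0.00244 untreated, log2 0.38 ± 0.10, adjusted p = 0.00788, and 0.25 without WT LPS library 4 with LPS), the second not passing when the LPS libraries were fitted alone (adjusted p = 0.0634). These are RNA levels, and HIF-1α protein was not measured in the files used here.

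Egln1 encodes the main prolyl hydroxylase, PHD2. Egln1 had 482, 494, 504 and 531 in untreated KO, against 702, 688, 684 and 719 in untreated WT. Egln1 values with LPS were 285, 293, 329 and 297 in KO, against 397, 378, 376 and 402 in WT. The groups were apart with KO lower (log2 -0.47 ± 0.06, adjusted p = 6.35e-06 untreated, log2 -0.37 ± 0.06, adjusted p = 7.60e-05, and -0.34 without WT LPS library 4 with LPS). Egln3, the hydroxylase PHD3 and itself a HIF target, had 0.561, 0.828, 1.92 and 0.510 in untreated KO, against 26.1, 25.2, 24.1 and 22.9 in untreated WT. These levels rest on 8 reads in all untreated KO libraries together and 210 in untreated WT libraries, with log2 -3.76 ± 0.29, adjusted p = 4.94e-08. Egln3 was at 0 reads in all 4 KO LPS libraries, against 4.06, 6.41, 1.98 and 1.76 in WT LPS libraries, which held 23 reads together. It was therefore at least 6.32-fold lower in KO with LPS, taking 3 reads over the group, or 0.557 per 10000000, as the upper limit that a count of 0 allows. That figure takes the 23 WT reads as exact and leaves out their counting error.

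Hypoxia-induced genes outside glycolysis numbered 11, of which 5 were lower and 2 higher in untreated KO cells, and 7 were lower with LPS while the other 4 did not pass (9 lower and 1 higher without WT LPS library 4). Bnip3 and Bnip3l encode mitophagy receptors. Bnip3 had 1086, 994, 1063 and 967 in untreated KO, against 1848, 1720.2, 1764 and 1809 in untreated WT. Bnip3 values with LPS were 545, 504, 563 and 498 in KO, against 1090.2, 1060.0, 1198 and 1741 in WT. The KO libraries were lower throughout (log2 -0.80 ± 0.12, adjusted p = 6.46e-05 untreated, log2 -1.24 ± 0.12, adjusted p = 5.32e-07, and -1.07 without WT LPS library 4 with LPS). Bnip3l had 491, 447, 462 and 463 in untreated KO, against 619, 545, 535 and 594 in untreated WT. Bnip3l values with LPS were 192, 205, 179.8 and 208 in KO, against 281, 285, 310.0 and 360.2 in WT. It was lower in KO by log2 -0.30 ± 0.08, adjusted p = 0.00925 in untreated cells and by log2 -0.65 ± 0.08, adjusted p = 9.99e-06, and -0.57 without WT LPS library 4 with LPS.

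Ankrd37, an ankyrin repeat gene known as a HIF target, had 73.0, 79.5, 68.2 and 79.1 in untreated KO, against 258, 222, 213 and 208 in untreated WT. Ankrd37 values with LPS were 15.0, 22.4, 19.6 and 27.7 in KO, against 92.9, 81.9, 92.1 and 171 in WT. The KO libraries lay well below the WT libraries in both states, with log2 -1.57 ± 0.20, adjusted p = 1.70e-05 in untreated cells and log2 -2.29 ± 0.20, adjusted p = 2.74e-07, and -2.05 without WT LPS library 4 with LPS. P4ha1, the catalytic subunit of collagen prolyl 4-hydroxylase, had 1897, 1867, 1960.3 and 1906 in untreated KO, against 2009, 2095, 2056 and 2105 in untreated WT. P4ha1 values with LPS were 3882, 3905, 3898 and 3875 in KO, against 4485, 4442, 4608 and 4465 in WT. Its differences were small and the groups did not overlap (log2 -0.11 ± 0.04, adjusted p = 0.0346 untreated, log2 -0.21 ± 0.04, adjusted p = 5.26e-04, and -0.21 without WT LPS library 4 with LPS), and the untreated call was lost when any of 6 untreated libraries was left out (adjusted p 0.0661 to 0.0926), with a replicate block (adjusted p = 0.0732), with no filter (adjusted p = 0.0523) and with no trend (adjusted p = 0.0510). P4ha2, another subunit gene of that family, was at or below 17.4 in all libraries and did not pass in either state (-0.57, adjusted p = 0.0514 untreated, and -0.36, adjusted p = 0.191 with LPS). Without WT LPS library 4 the difference with LPS was -0.41 (adjusted p = 0.176). The untreated P4ha2 difference passed in 9 of the other settings, among them library totals (-0.65, adjusted p = 0.0255) and no WT LPS library 4 (adjusted p = 0.0395), and that with LPS passed without WT LPS library 1 (-0.54, adjusted p = 0.0383).

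Vegfa, the vascular growth factor, had 734, 756, 793 and 751 in untreated KO, against 468, 471, 471 and 463 in untreated WT. Vegfa values with LPS were 386, 381, 396 and 366 in KO, against 432, 419, 411 and 398 in WT. It was higher in untreated KO cells (log2 0.69 ± 0.05, adjusted p = 1.15e-08) and below WT in every LPS library, where the difference did not pass (log2 -0.12 ± 0.05, adjusted p = 0.0584, and -0.13 without WT LPS library 4). It passed without that library (adjusted p = 0.0165) and with library weights (-0.14, adjusted p = 0.0171). Ndrg1, a stress and hypoxia response gene, had 2360.1, 2504, 2433 and 2481 in untreated KO, against 2172, 2168, 2275 and 2181 in untreated WT. Ndrg1 values with LPS were 381, 365, 373 and 413 in KO, against 751, 728, 743 and 726 in WT. KO was slightly higher without LPS (log2 0.15 ± 0.05, adjusted p = 0.0225, lost when any of 5 untreated libraries was left out, adjusted p 0.0521 to 0.0637, and with library totals, adjusted p = 0.356) and clearly lower with LPS (log2 -0.94 ± 0.05, adjusted p = 4.18e-10, and -0.95 without WT LPS library 4).

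Adm encodes the vasodilator peptide adrenomedullin. Adm had 53.9, 58.4, 61.9 and 61.2 in untreated KO, against 133, 124, 141 and 124 in untreated WT. Adm values with LPS were 102, 81.4, 77.5 and 80.3 in KO, against 63.5, 76.9, 64.9 and 87.9 in WT. It was lower in untreated KO cells (log2 -1.13 ± 0.11, adjusted p = 8.09e-07), and with LPS the groups overlapped (log2 0.22 ± 0.11, adjusted p = 0.122, and 0.32 without WT LPS library 4, there with adjusted p = 0.0127). Higd1a, a mitochondrial protein gene induced by hypoxia, had 199, 216, 219 and 239 in untreated KO, against 255, 286, 231 and 242 in untreated WT. Higd1a values with LPS were 214, 204, 185 and 195 in KO, against 258, 229, 244 and 462 in WT. It did not pass in untreated cells (log2 -0.21 ± 0.16, adjusted p = 0.348, and adjusted p = 0.00968 without WT LPS library 4), and it was lower in KO with LPS (log2 -0.52 ± 0.16, adjusted p = 0.0183, and -0.28 without WT LPS library 4), though not without KO LPS library 3 (adjusted p = 0.0519) or when the LPS libraries were fitted alone (adjusted p = 0.0990). WT LPS library 4 was far above the other WT libraries for this gene.

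Kdm3a, a histone demethylase gene and HIF target, had 488, 483, 522 and 493 in untreated KO, against 501, 481, 552 and 554 in untreated WT. Kdm3a values with LPS were 403, 354, 337 and 394 in KO, against 447, 498, 469 and 431 in WT. The groups overlapped without LPS (log2 -0.07 ± 0.07, adjusted p = 0.498), and KO was lower with LPS (log2 -0.31 ± 0.07, adjusted p = 0.00248, and -0.34 without WT LPS library 4). Mif, the macrophage migration inhibitory cytokine, did not pass in either state (-0.19, adjusted p = 0.485 untreated, and -0.45, adjusted p = 0.0721 with LPS), and WT LPS library 4 stood at 13003 against 5546 to 6228 in the other WT LPS libraries. Without that library Mif was lower in KO in both states (-0.20, adjusted p = 0.00303 untreated, and -0.15, adjusted p = 0.0291 with LPS).

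**Figure D2:**
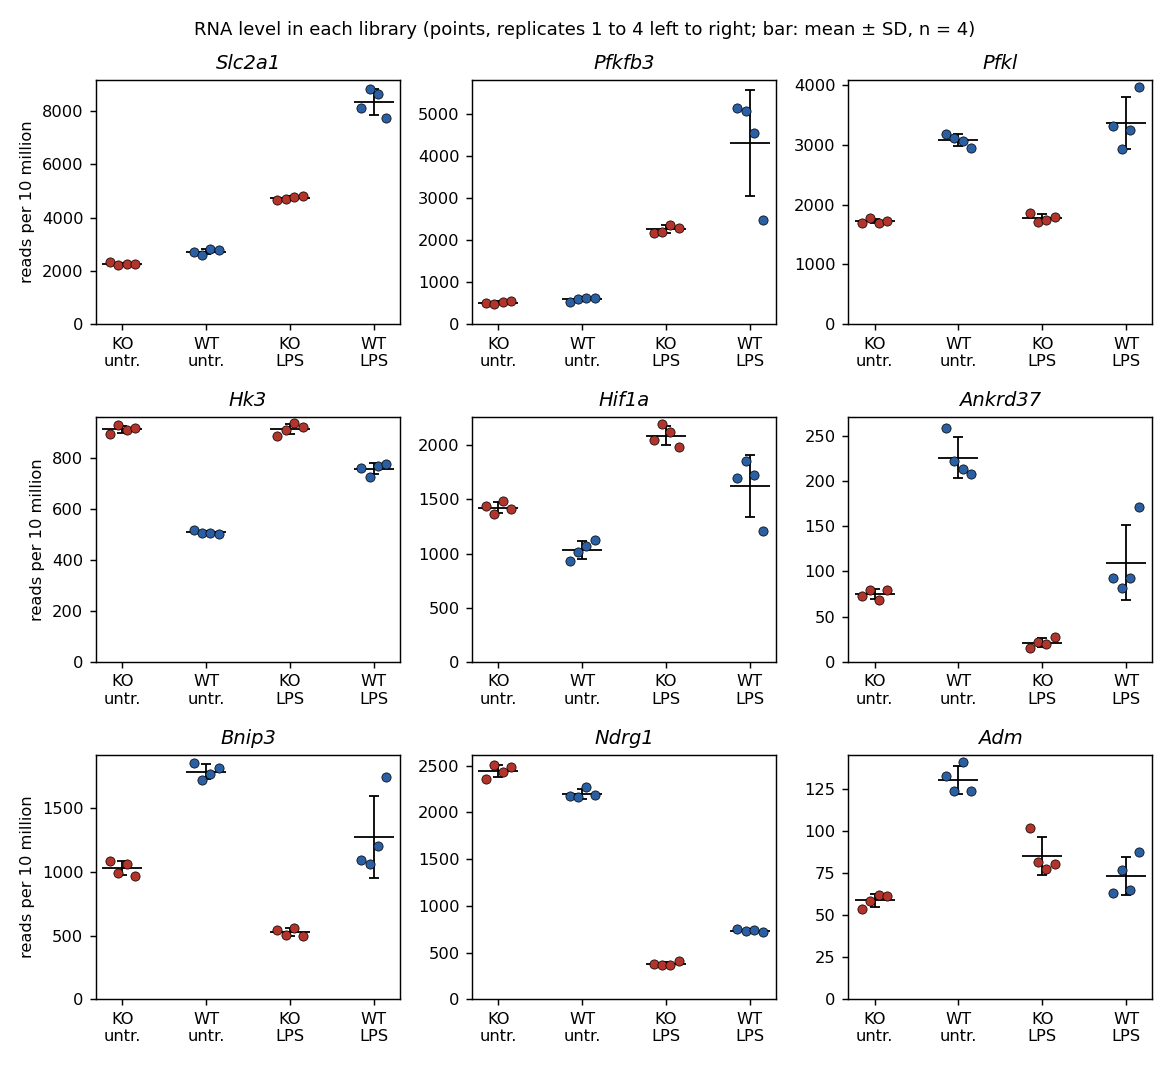
RNA level in every library (TMM-scaled reads per 10000000 mapped reads, linear axes from 0) of 9 members in untreated KO, untreated WT, LPS-treated KO and LPS-treated WT cells, with 4 points per group and bars of the mean ± SD. Pfkl, Ankrd37 and Bnip3 are lower in KO in both states, Hk3 and Hif1a are higher in both, and Ndrg1 is higher in KO without LPS and lower with LPS.

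In KO cells LPS raised 11 members and lowered 13, where it raised 31.7% and lowered 36.0% of all genes. In WT cells it raised 9 and lowered 14, where it raised 34.4% and lowered 36.1% of all genes. The member medians were -0.05 in KO and 0.00 in WT, and those of all genes -0.04 and -0.02. Without WT LPS library 4 both genotypes had 13 members raised and 15 lowered (39.8% and 41.4% of all genes in KO, 39.6% and 40.7% in WT). This split depends on the scaling. With library totals the median of all genes shifted to -0.43 in KO and -0.48 in WT, 4 members were raised and 24 lowered in KO, and 5 were raised and 26 lowered in WT, while the share of called genes that were raised became 22.7% in KO (46.8% with TMM) and 21.9% in WT (48.8% with TMM).

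Slc2a1, Hk2, Pfkfb3 and P4ha1 were raised by LPS in both genotypes under both scalings. Pfkfb3 had the steepest change of these, with log2 2.12 ± 0.17, adjusted p = 1.51e-08 in KO and log2 2.79 ± 0.17, adjusted p = 4.20e-10 in WT. Slc2a1 was raised by log2 1.07 ± 0.05, adjusted p = 1.85e-11 in KO and log2 1.61 ± 0.05, adjusted p = 7.92e-14 in WT, Hk2 by log2 0.99 ± 0.11, adjusted p = 6.69e-07 and log2 1.01 ± 0.11, adjusted p = 4.68e-07, and P4ha1 by log2 1.03 ± 0.04, adjusted p = 1.68e-12 and log2 1.12 ± 0.04, adjusted p = 4.28e-13. Hif1a was raised by log2 0.55 ± 0.10, adjusted p = 2.16e-04 in KO and log2 0.64 ± 0.10, adjusted p = 5.18e-05 in WT, and with library totals neither passed (0.16, adjusted p = 0.234, and 0.17, adjusted p = 0.208). Among the members that LPS lowered were Ndrg1, with log2 -2.67 ± 0.05, adjusted p = 1.09e-16 in KO and log2 -1.58 ± 0.05, adjusted p = 6.80e-14 in WT, Pfkm, with log2 -1.81 ± 0.10, adjusted p = 1.11e-10 and log2 -2.13 ± 0.10, adjusted p = 1.15e-11, and Ankrd37, with log2 -1.81 ± 0.20, adjusted p = 9.78e-07 and log2 -1.09 ± 0.20, adjusted p = 1.78e-04. Bnip3, Bnip3l, Pdk1, Egln1, Aldoc and P4ha2 were also lowered in both genotypes. Of the 11 hypoxia-induced genes, LPS lowered 7 in KO and 8 in WT, and raised 2 in KO and 1 in WT.

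The LPS response itself differed between genotypes for 11 members, with a lower KO response for 6 and a higher KO response for 5. Over all genes 10.5% had a lower and 10.2% a higher KO response. Ndrg1 fell more steeply in KO (log2 -1.10 ± 0.07, adjusted p = 1.59e-08), and so did Bnip3l (log2 -0.35 ± 0.11, adjusted p = 0.0401), which lost the call when any of 10 libraries was left out (adjusted p 0.0503 to 0.103) and with library totals (adjusted p = 0.0637) or median-of-ratios scaling (adjusted p = 0.0544). Vegfa fell in KO by far more than in WT (log2 -0.81 ± 0.07, adjusted p = 3.72e-07). Slc2a1 rose less in KO (log2 -0.54 ± 0.07, adjusted p = 4.16e-05), and Hk3 rose in WT cells only to a level still below that of KO cells, in which it did not pass (log2 -0.57 ± 0.06, adjusted p = 5.38e-06). Pfkp fell with LPS in KO (log2 -0.21 ± 0.07, adjusted p = 0.00946) and did not pass in WT (0.11, adjusted p = 0.158), where it was raised without WT LPS library 4 (0.19, adjusted p = 7.44e-06) and with library weights (0.19, adjusted p = 4.55e-05) and lowered with library totals (-0.36, adjusted p = 0.00114), a difference of log2 -0.32 ± 0.09, adjusted p = 0.0223, a call that was lost when any of 7 libraries was left out (adjusted p 0.0628 to 0.0844) and with library totals (adjusted p = 0.172). Adm was raised by LPS in KO (log2 0.52 ± 0.11, adjusted p = 6.57e-04, and 0.14 with adjusted p = 0.246 with library totals) and lowered in WT (log2 -0.83 ± 0.11, adjusted p = 6.10e-06), a difference of log2 1.35 ± 0.16, adjusted p = 1.37e-05. Gpi1 (log2 0.32 ± 0.09, adjusted p = 0.0180), Eno1 (log2 0.22 ± 0.06, adjusted p = 0.0249) and Slc16a1 (log2 0.30 ± 0.09, adjusted p = 0.0303) had higher responses in KO. Eno1 did not pass without untreated KO library 3 (adjusted p = 0.0568) or untreated WT library 3 (adjusted p = 0.0623) or with a replicate block (adjusted p = 0.0547), nor Slc16a1 without any of 6 untreated libraries (adjusted p 0.0501 to 0.0647). For Egln3 the fitted difference of 1.69 depends on the pseudocount, since KO LPS libraries were at 0 reads. Its LPS response in KO was 1.74-fold downward or more, with 3 reads as the limit for the count of 0. That figure takes the 8 untreated KO reads as exact and leaves out their counting error. The KO call was lost with a pseudocount of 5 (-0.25, adjusted p = 0.141) and with the KO libraries fitted alone (-0.90, adjusted p = 0.0815). In WT the response was log2 -2.61 ± 0.29, adjusted p = 7.80e-07. Without WT LPS library 4 there were 6 members with a higher and 13 with a lower KO response (20.2% and 19% of all genes), with Pfkfb3 among the lower ones (-0.91, adjusted p = 2.41e-10, against -0.67 and adjusted p = 0.0592 with all libraries). Without untreated KO library 3 or untreated WT library 3, 3 members had a higher KO response. With library totals 6 members had a higher and 4 a lower KO response.

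**Figure D3:**
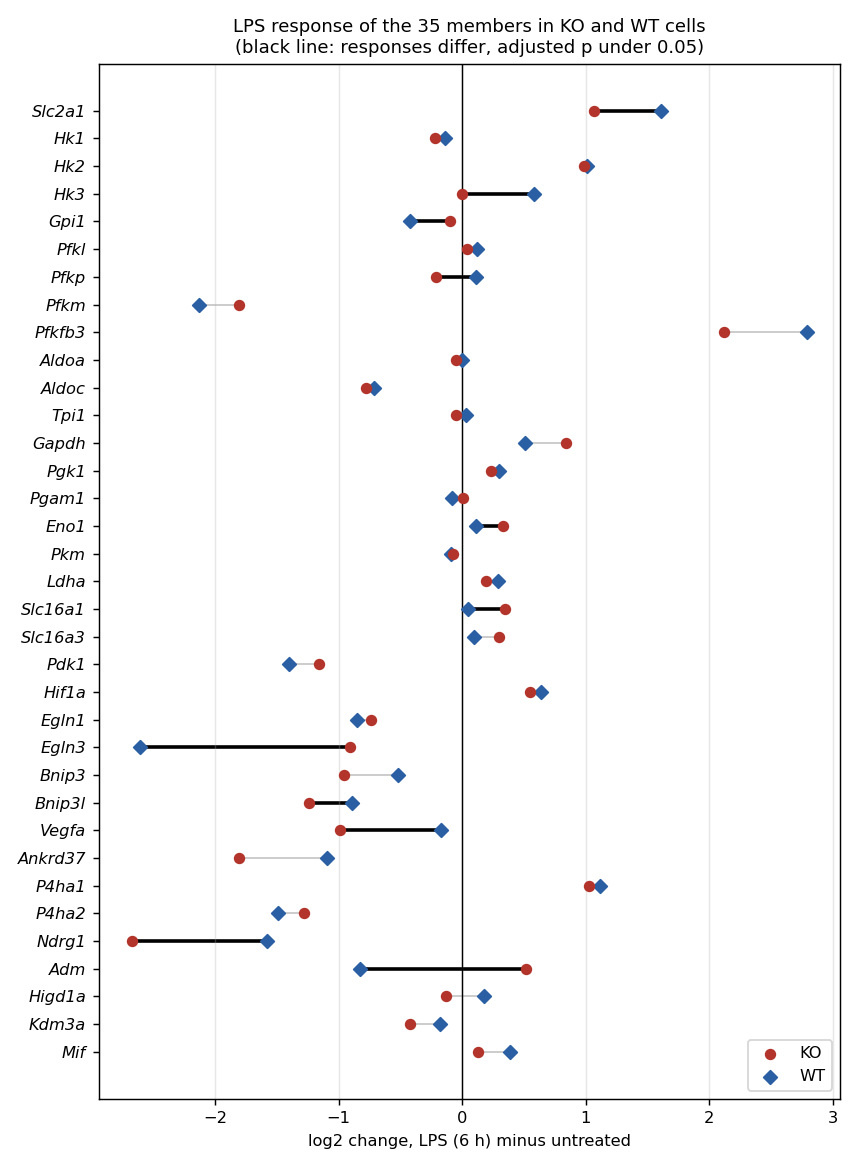
Log2 LPS response (6 hours of LPS minus untreated, horizontal axis) of each of the 35 members in KO cells (circles) and WT cells (diamonds), joined by a black line for the 11 members whose responses differed (limma, adjusted p under 0.05). The longest lines are those of Egln3, whose KO value depends on the pseudocount, Adm, Ndrg1 and Vegfa.

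Further genes of the same pathways were taken from 5 lists. Of 24 tested genes of other glycolysis and glucose handling (33 listed, 28 in the table), 3 were higher and 5 lower in untreated KO cells and 7 were higher and 5 lower with LPS, with medians of 0.06 and -0.02 (7 higher and 6 lower, and 8 and 8 with LPS, without WT LPS library 4). Eno3, the muscle enolase, was lower in both states (log2 -1.10 ± 0.12, adjusted p = 2.32e-06 untreated, and -1.02 ± 0.12, adjusted p = 5.09e-06 with LPS). The neuronal enolase gene Eno2 was lower with LPS (-1.52 ± 0.07, adjusted p = 1.87e-10), and Slc2a6, a lysosomal hexose transporter gene, was higher in untreated cells (0.90 ± 0.11, adjusted p = 8.86e-06). Of 10 pentose phosphate pathway genes, 4 were lower in untreated KO cells, and 2 were lower and 4 higher with LPS, with medians of -0.14 and 0.02 (2 higher and 5 lower, and 5 and 2 with LPS, without WT LPS library 4). Pgls, which acts after the entry dehydrogenase, was lower in both states (-0.67 ± 0.19, adjusted p = 0.0108 untreated, and -0.96 ± 0.19, adjusted p = 6.38e-04 with LPS). Prps2, which makes the nucleotide precursor PRPP, was higher with LPS (0.88 ± 0.07, adjusted p = 8.90e-08).

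Pyruvate dehydrogenase and citrate cycle genes (31 tested of 32 listed) numbered 3 higher and 4 lower in untreated KO cells and 8 higher and 2 lower with LPS, with medians of -0.06 and -0.07 (6 higher and 13 lower, and 12 and 4 with LPS, without WT LPS library 4). Me1, malic enzyme, and Dld, the shared dehydrogenase subunit, were each higher in untreated cells (0.60 ± 0.09, adjusted p = 4.41e-05, and 0.60 ± 0.08, adjusted p = 1.85e-05). Pdp1, the phosphatase that reactivates pyruvate dehydrogenase, was higher with LPS (0.69 ± 0.08, adjusted p = 6.72e-06). Of 13 tested other HIF pathway components (16 listed), 1 was higher and 1 lower in untreated KO cells and 4 were higher and 1 lower with LPS (2 and 2, and 4 and 3 with LPS, without WT LPS library 4). Egln2, a further prolyl hydroxylase gene, was the lower one in both states (-0.52 ± 0.11, adjusted p = 0.00135, and -0.77 ± 0.11, adjusted p = 3.32e-05), and Cited2, which encodes a competitor of HIF-1α for its coactivator, was higher with LPS (0.84 ± 0.04, adjusted p = 1.49e-10).

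Of 29 tested other hypoxia-induced genes (33 listed), 10 were higher and 11 lower in untreated KO cells and 8 were higher and 14 lower with LPS, with medians of -0.02 and -0.28 (13 higher and 12 lower, and 7 and 15 with LPS, without WT LPS library 4). Plod2, a collagen lysyl hydroxylase gene, was higher in both states (3.38 ± 0.15, adjusted p = 8.24e-11, and 3.57 ± 0.15, adjusted p = 6.51e-11). Cxcr4, a chemokine receptor gene, was higher in untreated KO cells (2.44 ± 0.26, adjusted p = 2.06e-06) and Car12, a carbonic anhydrase gene, with LPS (1.99 ± 0.16, adjusted p = 1.07e-07). Hypoxia-induced genes therefore did not move in 1 direction, inside or outside the 35 members.

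Chromatin at the member genes was compared in untreated cells by ATAC-seq, on the deposited log2-scale values. Of 223 open sites nearest to a member, 14 were more open and 4 less open in KO than in control cells, or 8.07%, near the 7.20% of all sites (4.04% more and 3.16% less open). None of the 38 sites within 1 kb of a member start passed in limma, with differences of -0.21 to 0.19 and a median of 0.01, and 6 of them had an unadjusted p under 0.05. A replicate block also left 0 of them past the threshold, and leaving out a library left 0 or 1. All 18 sites that passed lay farther out, near 15 genes, which is 9.73% of the 185 distal member sites, against 7.37% of all distal sites. The KO and control libraries were apart at all 18, but the test had already selected these sites for a difference. The share of all sites with libraries apart is not given, so this adds no support.

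The site with the largest difference lay at the end of Eno1 (chr4:149622088-149625551, 12.5 kb downstream of the start) and had 7.07, 6.95 and 6.93 in KO cells, against 6.56, 6.53 and 6.35 in control cells (difference 0.50 ± 0.08, adjusted p = 9.74e-08). A site upstream of Slc2a1 (chr4:118778331-118778714, 2.83 kb upstream of the start) had 5.93, 5.82 and 5.98 in KO cells, against 5.42, 5.58 and 5.48 in control cells (difference 0.42 ± 0.08, adjusted p = 5.65e-05). Both were more open in KO cells, where the untreated RNA of Eno1 and Slc2a1 was lower. Pgam1, with lower RNA in KO, had 2 sites that were more open, chr19:41991405-41991729, 5.21 kb downstream of the start (0.38 ± 0.07, adjusted p = 6.52e-06) and chr19:41993763-41994677, 7.86 kb downstream of the start (0.33 ± 0.07, adjusted p = 8.88e-04). A site in the last part of Gapdh (chr6:125110435-125111749, 4.7 kb downstream of the start) was more open as well (0.38 ± 0.08, adjusted p = 1.04e-04). Hk1, Gpi1, Pfkfb3, Pkm and Ldha each had 1 more open site, and Slc2a1 had a further one, with differences of 0.15 to 0.36. Less open sites were found near Hk2 (chr6:82703195-82703861, 20.9 kb downstream of the start, -0.31 ± 0.06, adjusted p = 1.76e-05), P4ha1 (-0.30 ± 0.08, adjusted p = 0.00522), Pdk1 (-0.26 ± 0.08, adjusted p = 0.0288) and Ndrg1 (-0.23 ± 0.08, adjusted p = 0.0459). Of the 18 sites, all but those of Eno1, Slc2a1 and the Bnip3l intron, which had the largest differences, were named after their values were seen.

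Near hypoxia genes, the site upstream of Hif1a (chr12:74939064-74940034, 62.8 kb upstream of the start) had 4.84, 4.59 and 4.58 in KO cells, against 4.29, 4.26 and 4.33 in control cells (difference 0.37 ± 0.08, adjusted p = 1.25e-04). Hif1a RNA was higher in KO as well. In an intron of Bnip3l (chr14:67609419-67610297, 17.9 kb downstream of the start) a site had 5.80, 5.99 and 5.87 in KO cells, against 5.50, 5.41 and 5.50 in control cells (difference 0.42 ± 0.08, adjusted p = 4.68e-05). Beyond the end of the same gene (chr14:67591970-67592502, 35.5 kb downstream of the start) a site had 4.75, 4.61 and 4.68 in KO cells, against 4.32, 4.54 and 4.47 in control cells (difference 0.23 ± 0.08, adjusted p = 0.0377). Bnip3l RNA was lower in KO cells. The central 201 bases of these 3 sites (NCBIM37, plus strand) are shown because the factors described next bind at or beside them, and capitals mark the AP-1 motif TGANTCA.
Hif1a, upstream (chr12:74939449-74939649): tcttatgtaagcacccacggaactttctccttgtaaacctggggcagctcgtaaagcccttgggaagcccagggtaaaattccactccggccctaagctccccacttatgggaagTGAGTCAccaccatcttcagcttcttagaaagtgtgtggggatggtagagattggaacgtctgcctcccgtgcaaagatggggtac
Bnip3l, intron (chr14:67609758-67609958): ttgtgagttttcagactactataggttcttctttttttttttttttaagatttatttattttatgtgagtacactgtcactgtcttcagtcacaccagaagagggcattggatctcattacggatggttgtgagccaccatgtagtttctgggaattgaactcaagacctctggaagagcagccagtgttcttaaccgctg
Bnip3l, beyond the end (chr14:67592136-67592336): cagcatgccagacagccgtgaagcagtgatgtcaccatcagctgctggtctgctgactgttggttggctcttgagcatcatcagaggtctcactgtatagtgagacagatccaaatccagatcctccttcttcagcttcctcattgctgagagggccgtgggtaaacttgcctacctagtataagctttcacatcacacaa
TGANTCA was present in the Hif1a site and in neither Bnip3l window, and the PU.1 motif GAGGAAGT in none of them (both strands searched). Over windows of this length, TGANTCA was found at 33 of 223 member sites (14.8%) and at 10130 of 73105 sites in all (13.9%), and GAGGAAGT at 7 member sites (3.14%) and at 6.38% of all sites. Of the 14 more open member sites 1 held TGANTCA, and of the 4 less open sites 0.

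**Figure D4:**
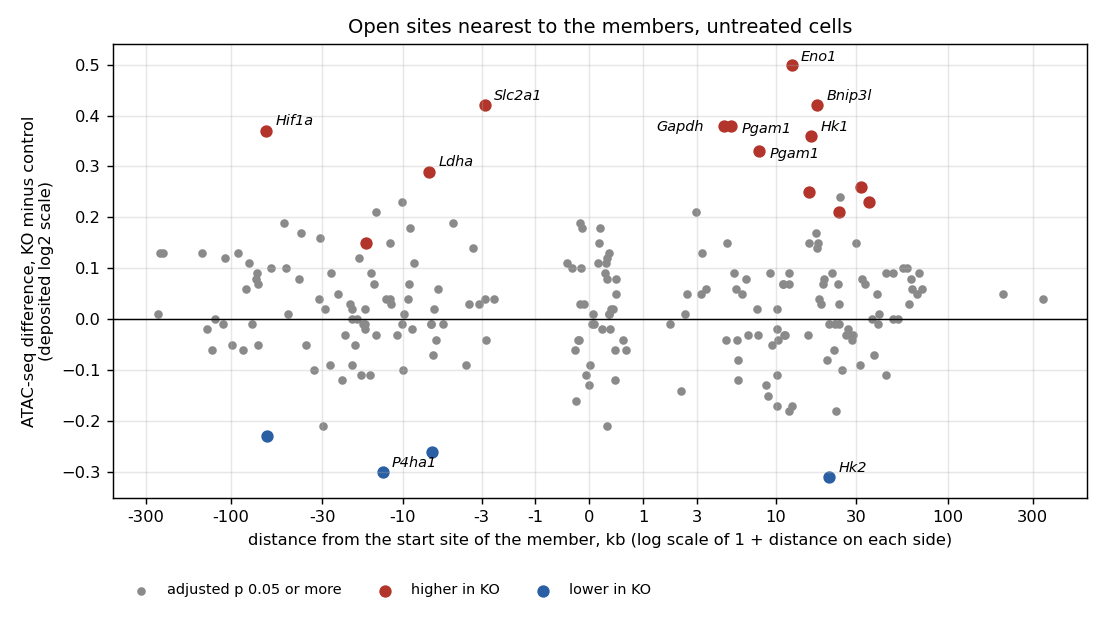
ATAC-seq difference, KO minus control, of the 223 open sites nearest to a member in untreated cells (vertical axis, deposited log2 scale) against the distance from the start site of the member in kb (horizontal axis, log scale of 1 + distance on each side). Coloured points passed the limma test, 14 higher and 4 lower, and none of them lies within 1 kb of a start.

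The ChIP-seq libraries of a group differed little (chi-square of 0.822 to 1.11 per peak, where sampling noise alone gives 1, and 1.24 for untreated KO with JunB), so each pair was counted as 1 sample and no test was made. Values are TMM-scaled reads per 10000000 mapped reads, and a log2 ratio carries an exact binomial 95% interval that covers counting error only. A site is counted as changed past 1.5-fold only if its mean over all libraries of the assay was at least 10 reads. A site with few reads in a group can therefore pass this filter through the other groups alone. Sites named below as the largest changes were picked for their ratios, so their size is no separate support.

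RNA polymerase II was measured with LPS. Of 81 member sites above the read filter, 22 were higher and 18 lower in KO, or 27.2% and 22.2%, close to the 22.7% and 20.7% of all sites. Regions of this protein are wide, and the picture at starts depended on which regions were counted. Of the 17 member regions centred within 1 kb of a start, 8 were lower and 1 higher with a median of -0.53, where 27.3% of all such regions were lower and 10.6% higher with a median of -0.24. Of the 33 member regions that span a start, a count added after the data were seen, 10 were lower and 8 higher with a median of -0.03, where 25% of all such regions were lower and 13.3% higher with a median of -0.19.

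The 16 regions that span a start but are centred farther away held 7 that were higher and 2 that were lower, with a median of 0.46. Of all such regions, 22.3% were higher and 17.5% lower, with a median of -0.01. P4ha1 had 682 in KO and 216 in WT (log2 ratio 1.66, interval 1.52 to 1.80), Slc2a1 had 504 in KO and 278 in WT (log2 ratio 0.85, interval 0.71 to 1.00), and Ndrg1 had 574 in KO and 356 in WT (log2 ratio 0.69, interval 0.55 to 0.82), and for these 3 genes RNA was lower in KO with LPS. Hk1 (0.95), Pfkp (0.83), Vegfa (0.65) and Hk3 (0.63) were the other 4 that were higher. With LPS, the RNA of Hk3 was higher in KO and that of Pfkp lower. The RNA of Hk1 and Vegfa did not pass with all libraries and was lower without WT LPS library 4. Pkm had 1780.5 in KO and 3692 in WT (log2 ratio -1.05, interval -1.12 to -0.99) and Mif had 270.4 in KO and 512 in WT (log2 ratio -0.92, interval -1.10 to -0.75). Pkm RNA was lower in KO with LPS as well, and Mif RNA only without WT LPS library 4. The remaining 7 ran from -0.46 at Ankrd37 to 0.49 at Pgam1. Among them, RNA with LPS was lower in KO for Ankrd37, Slc16a3 (-0.36), Pgk1 (0.37) and Pgam1. It was higher for Gpi1 (0.44) and did not pass for Hk2 (0.21) and Eno1 (0.04), the log2 ratios of the polymerase being in brackets.

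Among the regions centred within 1 kb, the lowest ratio was at Pdk1, with 73.5 in KO and 170.2 in WT (log2 ratio -1.20, interval -1.56 to -0.88). Egln1 had 35 in KO and 77.5 in WT (log2 ratio -1.13, interval -1.66 to -0.67), and Higd1a had 81.4 in KO and 177 in WT (log2 ratio -1.12, interval -1.45 to -0.81). The Pfkl site had 105 in KO and 177 in WT (log2 ratio -0.75, interval -1.05 to -0.48). For these 4 genes RNA was lower in KO with LPS as well, Pdk1 without WT LPS library 4 or with library weights. The start of Pfkm had 109 in KO and 196 in WT (log2 ratio -0.83, interval -1.12 to -0.57), while its RNA was higher in KO.

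Bnip3l had 42.9 in KO and 75.6 in WT (log2 ratio -0.80, interval -1.28 to -0.38), Aldoc had 25.4 in KO and 43.4 in WT (log2 ratio -0.75, interval -1.39 to -0.20), and Bnip3 had 97.1 in KO and 140.4 in WT (log2 ratio -0.53, interval -0.84 to -0.24). Ratios closer to 0 were found at Ldha (-0.26, interval -0.34 to -0.17), Hif1a (-0.11, interval -0.37 to 0.14), Gapdh (-0.03, interval -0.09 to 0.04), Kdm3a (0.05, interval -0.23 to 0.32) and Pfkfb3 (0.16, interval -0.09 to 0.40, and -0.03, interval -0.45 to 0.37, at its 2 starts). A second Pfkm start rested on 7 reads in KO (-0.89, interval -2.38 to 0.16). Slc16a1 was higher, below 1.5-fold, with 559.9 in KO and 376 in WT (log2 ratio 0.57, interval 0.44 to 0.71). The site past 1.5-fold upward was Adm, with 38.5 in KO and 15.1 in WT (log2 ratio 1.29, interval 0.76 to 1.93). Away from starts, the largest changes among sites above the read filter were an intron site of Pfkp, with 21 in KO and 4.63 in WT (log2 ratio 1.97, interval 1.25 to 3.13), and an intron site of Bnip3, with 1.75 in KO and 9.26 in WT (log2 ratio -1.90, interval -5.50 to -0.45). Reads in peaks made up 14.18% to 14.38% of the KO libraries and 45.02% to 46.43% of the WT libraries, and with library totals the median of all sites was -1.835 and 0 member sites were higher and 74 lower, so these ratios are relative to the other sites. Their part in the result was not tested.

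MED1, a Mediator subunit, was also measured with LPS. Of 95 member sites, 9 were higher and 2 lower in KO, against 8.74% and 6.41% of all sites. With either library of each group left out 9 were lower, and the share of all sites in that setting is not given. With library totals 1 was higher and 70 lower, and the median of all sites was -0.743. At the 25 promoter sites 0 were higher and 1 lower, where 3.03% of all promoter sites were higher and 5.16% lower. The lower member site was at Bnip3, with 29.5 in KO and 56.7 in WT (log2 ratio -0.92, interval -1.42 to -0.48). The other 24 promoter ratios ran from -0.49 at Adm to 0.31 at Pfkfb3. The largest changes were the site beyond the end of Bnip3l, with 19.5 in KO and 6.21 in WT (log2 ratio 1.51, interval 0.76 to 2.60), and a site far upstream of Pfkp (chr13:6888614-6889199, 241 kb upstream of the start), with 15.6 in KO and 6.21 in WT (log2 ratio 1.2, interval 0.39 to 2.31). Reads in peaks made up 8.81% to 8.92% of the KO libraries and 14.57% to 14.6% of the WT libraries.

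PU.1, the macrophage lineage factor, was measured without and with LPS. Without LPS, 5 of 146 were higher and 12 lower in KO (7.07% and 9.78% of all sites), and with LPS 8 were higher and 18 lower (13.9% and 11.6% of all sites). Without libraries 1 these counts were 16 higher and 20 lower untreated and 13 higher and 20 lower with LPS, and without libraries 2 they were 13 and 16 untreated and 19 and 22 with LPS. Shares of all sites with a library left out are not given, so these counts are not read as a result about the members. With library totals 0 were higher and 71 lower untreated, and 3 higher and 55 lower with LPS, where the medians of all sites were -0.538 and -0.405. At promoters with LPS 4 of 34 were lower and 0 higher, where 8.91% of all promoter sites were lower and 7.36% higher. The 4 lower member sites were a pair of Aldoc sites, with 9.72 in KO and 27.1 in WT (log2 ratio -1.39, interval -2.45 to -0.60) and with 13.9 in KO and 25.4 in WT (log2 ratio -0.83, interval -1.71 to -0.08), a Pfkm site (-0.65, interval -1.38 to -0.01) and an Ndrg1 site (-0.73, interval -1.49 to -0.06). Without LPS the 3 promoter sites past 1.5-fold were at Ankrd37, with 41.1 in KO and 78.3 in WT (log2 ratio -0.91, interval -1.33 to -0.54), at Bnip3 (-0.69, interval -1.11 to -0.31) and, upward, at Gapdh (0.62, interval 0.20 to 1.07). Over all promoter sites without LPS, 5.21% were higher and 5.34% lower. The largest change with LPS lay upstream of P4ha1 (chr10:58765465-58765811, 20.4 kb upstream of the start), with 3.47 in KO and 15.3 in WT (log2 ratio -1.86, interval -3.87 to -0.74). The largest changes without LPS were an intron site assigned to Egln3 (chr12:54875252-54875543, 429 kb downstream of the start), with 23.1 in KO and 11.6 in WT (log2 ratio 0.94, interval 0.30 to 1.70), and a site upstream of Pdk1, with 9.02 in KO and 4.21 in WT (log2 ratio 0.94, interval -0.07 to 2.31). LPS moved PU.1 at 28 member sites upward and 24 downward in KO (18.5% and 15.3% of all sites) and at 15 upward and 11 downward in WT (11.9% and 12.9%), the WT count upward being 27 without libraries 1 and 23 without libraries 2. With library totals 5 moved upward and 73 downward in KO, and 2 and 74 in WT, where the medians of all sites were -0.555 and -0.69. In KO the largest were beyond the end of Bnip3l (1.5, interval 0.70 to 2.58) and far upstream of Pfkp (1.43, interval 1.08 to 1.83). In WT they were upstream of Pdk1 (1.69, interval 0.89 to 3.02) and in an intron of Slc16a3 (-1.34, interval -2.73 to -0.44). Reads in PU.1 peaks made up 17.16% to 17.46% of untreated KO and 24.84% to 25.17% of untreated WT libraries. With LPS they made up 11.71% to 11.74% in KO and 15.54% to 15.96% in WT.

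JunB, an AP-1 subunit, passed 1.5-fold between KO and WT at more member sites without LPS than with it. Without LPS, reads in peaks made up only 5.79% to 6.01% of the KO libraries and 6.91% to 7.51% of the WT libraries. With LPS they made up 25.23% to 26.39% in KO and 28.84% to 29.17% in WT. What part this has in the counts was not tested. Of 176 member sites, 46 were higher and 17 lower in untreated KO cells (21.3% and 20.0% of all sites), with 26 lower without libraries 1 and 31 without libraries 2. The shares of all sites with a library left out are not given. With library totals 24 were higher and 35 lower, and the median of all sites was -0.286. At 27 member promoters 19 were higher and 0 lower, with a median log2 ratio of 1.06, but 57.8% of all promoter sites were higher as well, with a median of 0.75. The largest was the Bnip3l start, with 56.1 in KO and 11.7 in WT (log2 ratio 2.17, interval 1.46 to 3.13). A Hif1a start had 44.9 in KO and 11.7 in WT (log2 ratio 1.85, interval 1.1 to 2.83), and Ankrd37 had 57.2 in KO and 24 in WT (log2 ratio 1.22, interval 0.61 to 1.90). Other promoter ratios past 1.5-fold ran from 0.66 at Pfkp to 1.73 at Pfkfb3. The other extreme was a site beyond Mif that held 1 read in KO and 11 in WT (-1.94, interval -8.10 to 0.11). With LPS 13 member sites were higher and 17 lower in KO (13.2% and 10.3% of all sites). With library totals 37 were lower, and the median of all sites was -0.162. At promoters with LPS 2 were higher, a Pfkfb3 site (0.70, interval 0.15 to 1.41) and a Hif1a site (0.68, interval 0.06 to 1.51). Over all promoter sites with LPS, 6.45% were higher and 5.62% lower.

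The largest JunB changes with LPS lay upstream of Adm (chr7:117768330-117768610, 2.7 kb upstream of the start), with 9.67 in KO and 26.9 in WT (log2 ratio -1.39, interval -1.99 to -0.99), and in the Bnip3l intron beside the more open site, with 47.0 in KO and 19.3 in WT (log2 ratio 1.24, interval 0.95 to 1.64). The same Bnip3l intron site had 49.4 in KO and 24 in WT (log2 ratio 1.01, interval 0.37 to 1.71) without LPS. LPS lowered JunB in KO at 21 of 27 member promoters and raised it at 1, where 66.4% of all promoter sites were lower and 8.81% higher. In WT it lowered 5 and raised 5, where 38.3% of all promoter sites were lower and 13.3% higher. Over all member sites, LPS raised 34 and lowered 59 in KO (30.8% and 25.8% of all sites) and raised 42 and lowered 32 in WT (27% and 23.1%). In KO the largest LPS responses were at the Mif site (3.26, interval 1.59 to 9.43, from 1 read without LPS) and the Higd1a start (-2.41, interval -3.07 to -1.96). In WT they were at distal sites of Ndrg1 (2.16, interval 1.26 to 3.90) and Hif1a (2.12, interval 1.15 to 4.08). With library totals the median of all JunB sites was 2.08 in the LPS response of KO and 1.903 in that of WT, and 165 member sites were raised in KO and 171 in WT, so these directions too are relative to the other sites.

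The site beyond the end of Bnip3l was higher in KO in all 4 assays that hold it, a combination noticed after its values were seen. With LPS, PU.1 had 25.7 in KO and 10.2 in WT (log2 ratio 1.26, interval 0.49 to 2.24), and JunB had 28.1 in KO and 13.6 in WT (log2 ratio 0.99, interval 0.62 to 1.47). MED1 and ATAC-seq values were given above. The upstream Hif1a site had MED1 at 61.8 in KO and 43.1 in WT (log2 ratio 0.51, interval 0.13 to 0.91) and JunB at 53.9 in KO and 60.2 in WT (log2 ratio -0.16, interval -0.40 to 0.08). At the Bnip3l site without LPS the ratios were 0.06 (interval -0.98 to 1.07) for PU.1 and -0.15 (interval -1.17 to 0.78) for JunB. Bnip3l RNA and RNA polymerase II at its start were lower in KO in these same data.

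**Figure D5:**
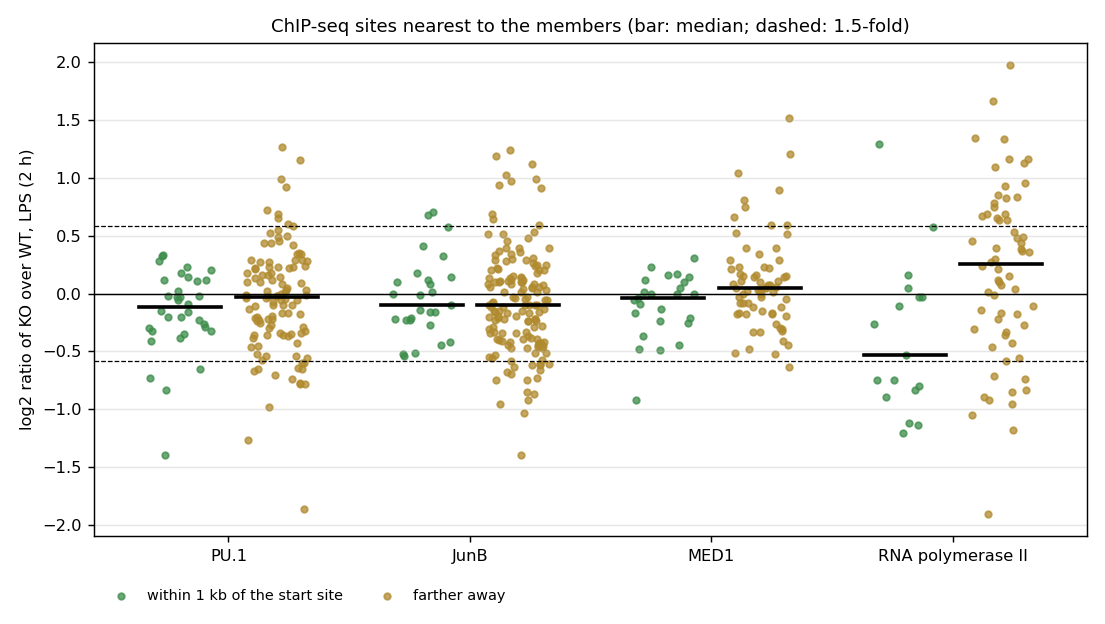
Log2 ratio of KO over WT with LPS (2 hours) at member sites above the read filter for PU.1, JunB, MED1 and RNA polymerase II, with sites within 1 kb of a start left of those farther away, a bar at the median and dashed lines at 1.5-fold. The RNA polymerase II sites near starts, here those centred within 1 kb, have a median of -0.53 (-0.03 over all regions that span a start), and those of the other 3 proteins lie between -0.12 and -0.04.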

How the data were processed

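RNA-seq (16 libraries), ATAC-seq (6) and ChIP-seq (24) of RAW264.7 cells were analysed, 46 of the 247 samples of the series. RNA and ChIP libraries were deposited by the authors as reads per 10000000 mapped reads, per the file headers, and whole reads were recovered from them (100% of values up to 200 reads were whole within 0.05 of a read). For ATAC-seq the deposited values are on a log2 scale, by a transformation that is not stated, so differences are on that scale. Per the submitters' processing notes the tools were HISAT2, BWA, Bowtie2, MACS2, HOMER, DESeq2 and edgeR, with build mm9, and no versions are given in the sources used here. Per the file headers, sites were annotated with HOMER (the JunB header names no command), and every library of an assay has a value at the same sites. A further 8 columns of rescaled copies were not used.

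Groups came from the labels. Values were scaled by TMM factors computed on the recovered reads, and log2(value + 1) was tested with limma 3.58.1 in R 4.3.3 (R package data.table, version 1.17.8), with the prior spread following mean expression (trend), robust moderation, 1 coefficient per group and two-sided tests. Genes entered the test with the equivalent of 10 reads (at the median depth) in at least 4 libraries and 15 reads in all, which left 11774 of 14378 genes, and adjusted p under 0.05 was called. ATAC-seq was fitted with limma over 73206 sites. The count model planned for recovered reads was not run. For ChIP-seq the 2 libraries of a group counted as 1 sample, and log2 ratios (pseudocount 1) carry exact binomial 95% intervals. PCR reads without molecular identifiers are not independent molecules, so intervals and limits at 0 reads cover counting error only. The limits at 0 reads leave out counting error in the other group. The fits were tested on simulated data. Mapped reads per library were 12094940 to 22968591 for RNA-seq, 4038814 to 7108592 for ATAC-seq, 8096466 to 10389811 for PU.1, 8649049 to 16006472 for JunB, 9793462 to 11932305 for MED1 and 10230448 to 11113625 for RNA polymerase II. Motifs, summaries and plots were made in Python 3.11.15 (scipy 1.17.1, numpy 2.4.6, pandas 2.3.3, matplotlib 3.10.9). Site sequences were read from NCBIM37 (the same assembly as mm9) and promoters from RefSeq (GRCm38.p6).

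The members and gene lists were chosen with earlier results of these data known. A member was given in every library if it passed in KO against WT without or with LPS or in the difference of LPS responses, other lists by counts with at most 2 genes per comparison, and sites singly if within 1 kb of a start or among the 2 largest changes of an assay's comparison. Alternatives were library totals and median-of-ratios scaling, a pseudocount of 5, no filter, no trend, a fit restricted to the groups compared, library weights, a replicate block, for ATAC-seq equal medians and leaving out the lowest sites by mean value, for ChIP-seq a 2-fold threshold, and leaving out each library. Counting RNA polymerase II regions that span a start was added after seeing the data.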

Additional observations from a re-analysis of the deposited data

Results flagged for a closer look

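In groups of 4 libraries, a library far from the other 3 by Dixon's criterion was found in 9 of 140 groups (35 members in 4 groups), and chance alone gives about 1 in 20. In 4 of the 9 it was WT LPS library 4, with Gapdh at 22.8, Ankrd37 at 171, Higd1a at 462 and Mif at 13003 reads per 10000000. The others were Aldoc in untreated WT library 2 (1349.9), Ldha in untreated KO library 1 (23268) and untreated WT library 1 (29069), Ndrg1 in untreated WT library 3 (2275) and Adm in KO LPS library 1 (102).

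For 11 members the LPS response differed between KO and WT cells by a test of the difference itself (limma, Benjamini-Hochberg adjusted p under 0.05). The differences, KO minus WT, were -1.10 for Ndrg1, -0.81 for Vegfa, -0.57 for Hk3, -0.54 for Slc2a1, -0.35 for Bnip3l and -0.32 for Pfkp, and 1.69 for Egln3, 1.35 for Adm, 0.32 for Gpi1, 0.30 for Slc16a1 and 0.22 for Eno1. The Egln3 value rests on KO LPS libraries at 0 reads.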

How the results depend on the processing

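Leaving out each library in turn (for ChIP-seq, the same-numbered library of both groups) gave 4 to 5 members higher and 16 to 25 lower in KO without LPS, 5 to 7 and 20 to 25 with LPS, 11 to 13 raised and 13 to 15 lowered by LPS in KO, 8 to 13 and 13 to 15 in WT, and 3 to 6 higher and 4 to 13 lower KO responses. For ATAC-seq the ranges were 10 to 13 more open and 3 to 4 less open sites. For PU.1 they were 13 to 16 and 16 to 20 (KO against WT without LPS), 13 to 19 and 20 to 22 (with LPS), 26 to 28 and 24 to 26 (LPS in KO) and 23 to 27 and 14 to 16 (LPS in WT). For JunB they were 46 to 56 and 26 to 31 (without LPS), 14 to 15 and 20 to 25 (with LPS), 37 to 38 and 50 to 69 (LPS in KO) and 40 to 57 and 33 to 41 (LPS in WT), for MED1 8 to 10 and 9 to 9, and for RNA polymerase II 19 to 21 and 19 to 21. Shares of all genes or sites in these runs are not given, except for RNA-seq without WT LPS library 4.

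With library totals, 4 members were raised and 24 lowered by LPS in KO, and 5 and 26 in WT. The response turned downward in KO for Hk3 (-0.39), Pfkl (-0.35), Pgk1 (-0.16), Pgam1 (-0.38), Eno1 (-0.06), Ldha (-0.20), Slc16a1 (-0.04) and Slc16a3 (-0.09), and in WT for Pfkl (-0.34), Pfkp (-0.36), Aldoa (-0.46), Tpi1 (-0.44), Pgk1 (-0.16), Eno1 (-0.35), Ldha (-0.17), Slc16a1 (-0.42) and Slc16a3 (-0.37). The median of all genes shifted as well, to -0.43 in KO and -0.48 in WT. Pgam1 turned upward in WT without WT LPS library 4 (0.10). When only the groups compared were fitted, 7 members were higher and 25 lower in KO without LPS, and 3 and 16 with LPS. Library weights gave 6 and 25 without LPS and 7 and 25 with LPS. Shares of all genes in these fits are not given, so the member counts are not set against them. Counts that moved by over 1.5 times were the 3 higher above, 14 lower KO responses with library weights, and 1 less open ATAC-seq site with no trend of the spread. RNA polymerase II regions that span a start, a count added after seeing the data, numbered 8 higher and 10 lower.

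For ChIP-seq, library totals moved the counts of higher and lower member sites, and a 2-fold threshold left fewer. The medians of all sites moved with library totals as well, as given above. KO against WT without LPS gave 0 and 71 PU.1 sites with totals and 0 and 0 at 2-fold, and 24 and 35 JunB sites with totals and 20 and 9 at 2-fold. With LPS there were 3 and 55 PU.1 sites with totals and 2 and 3 at 2-fold, 37 lower JunB sites with totals and 4 and 2 at 2-fold, 1 and 70 MED1 sites with totals and 3 and 0 at 2-fold, and 0 and 74 RNA polymerase II sites with totals and 9 and 6 at 2-fold. The LPS response in KO gave 5 and 73 PU.1 sites with totals and 9 and 3 at 2-fold, and 165 and 0 JunB sites with totals and 16 and 32 at 2-fold. In WT it gave 2 and 74 PU.1 sites with totals and 5 and 4 at 2-fold, and 171 and 0 JunB sites with totals and 24 and 8 at 2-fold. The causes were not tested.

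The replicate numbers did not pair the samples (correlation of same-numbered deviations -0.365 to 0.21 in RNA-seq and -0.00501 to -0.00101 in ATAC-seq). With a replicate block, 5 members were higher and 16 lower in KO without LPS, 6 and 21 with LPS, 11 raised and 13 lowered by LPS in KO, 9 and 13 in WT, 4 higher and 6 lower KO responses, and 14 more and 4 less open sites. The block ended the untreated calls of Ldha and P4ha1 (adjusted p = 0.0567 and 0.0732). A count model on the recovered reads (edgeR) was not run for RNA-seq or ChIP-seq. The difference of LPS responses needs all 4 groups, so it has no such restricted fit. Genes near the filter, such as P4ha2, Egln3 and Gapdh, and ChIP-seq sites of a few reads are limited by depth.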
